A study of Mus musculus with 46 samples.

Results

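Serine synthesis and the Atf4 response were followed here through 10 genes chosen by symbol: the serine synthesis enzymes Phgdh, Psat1 and Psph, the mitochondrial one-carbon enzymes Shmt2 and Mthfd2, asparagine synthetase (Asns), the stress response genes Chac1, Ddit3 and Trib3, and the transcription factor Atf4. All 10 were found in each of the 4 deposited tables, which together list 24824 gene symbols over 46 libraries of mouse microglia, the resident macrophages of the brain. Adult mice aged 10 to 12 weeks carried Cx3cr1CreER, an inducible Cre recombinase driven by the promoter of the fractalkine receptor gene, which monocytes and other macrophages also use. Controls were Cx3cr1CreER:Dicer+/- and Dicer-deficient mice were Cx3cr1CreER:Dicerfl/-, so that all carried the Cre and a Dicer null allele. When tamoxifen was given is not stated in the sources used here. Their microglia were sorted as CD45intCD11b+F4/80+Ly6C-Ly6G- cells. The adult table held 4 control and 3 Dicer-deficient libraries at steady state. The total brain table held 3 control and 3 Dicer-deficient libraries called steady state here, whose labels also say PBS. Whether these mice were injected is unclear. It also held 4 libraries of each genotype taken 6 h after 1 mg/kg lipopolysaccharide (LPS, a bacterial cell wall component) given intraperitoneally. The hippocampus table held 2 control and 3 Dicer-deficient libraries at steady state and 2 of each after LPS. The development table held controls that were Dicerfl/fl, namely 4 embryonic libraries of day 14 (E14), 5 of newborns (P0) and 5 of adults aged 6 to 8 weeks, the embryonic cells being sorted as F4/80hi among CD45+CD11b+ cells. It also held 2 Dicer-deficient P0 libraries that were Cx3cr1Cre:Dicerfl/fl, in which the Cre is not inducible. Dicer cuts precursor microRNAs to their mature form. The question was how its loss alters microglia at rest, after LPS and around birth.

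Serine is made from a glycolytic intermediate in a chain of reactions: Phgdh oxidises 3-phosphoglycerate, Psat1 transaminates the product, and Psph removes the phosphate. Shmt2 then splits serine into glycine and a one-carbon unit on folate, and Mthfd2 oxidises that unit, which feeds the synthesis of purines. Atf4 is translated when the initiation factor eIF2 is phosphorylated, under amino acid shortage, stress of the endoplasmic reticulum or other stresses, and it activates genes of amino acid synthesis. Because that control acts on translation, an Atf4 mRNA level is not a measure of Atf4 activity. Macrophages exposed to LPS are known to use serine and one-carbon metabolism.

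Atf4 binds composite elements with C/EBP partners, written here as TGATGNAA. That motif and a variant, TGNTGCAA, which was chosen after the promoters of these genes had been read, were searched on both strands from 250 bases before to 50 bases after each start site. TGATGCAA is a match of both. In RefSeq's promoter table (GRCm38.p6), TGATGNAA was found in 3.97% and TGNTGCAA in 3.22% of 32851 windows, and either in 6.2%. All 10 genes had a window, 11 in all. TGATGNAA was found in 3 of these windows and TGNTGCAA in 3, and Psat1 matched through the variant alone. Counting both motifs, 4 genes held a match. Those 4 windows are printed in the direction of the gene with the matches in capitals, because Psat1 and Asns carry some of the largest changes described below and the other 2 are textbook Atf4 targets.
Psat1, chr19:15925010-15925309, minus strand: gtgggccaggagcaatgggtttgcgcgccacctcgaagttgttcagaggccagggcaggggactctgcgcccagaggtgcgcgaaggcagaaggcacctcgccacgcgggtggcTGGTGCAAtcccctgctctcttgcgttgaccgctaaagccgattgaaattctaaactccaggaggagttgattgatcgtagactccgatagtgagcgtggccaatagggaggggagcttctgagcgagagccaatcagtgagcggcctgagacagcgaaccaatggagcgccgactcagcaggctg
Asns, chr6:7693160-7693459, minus strand: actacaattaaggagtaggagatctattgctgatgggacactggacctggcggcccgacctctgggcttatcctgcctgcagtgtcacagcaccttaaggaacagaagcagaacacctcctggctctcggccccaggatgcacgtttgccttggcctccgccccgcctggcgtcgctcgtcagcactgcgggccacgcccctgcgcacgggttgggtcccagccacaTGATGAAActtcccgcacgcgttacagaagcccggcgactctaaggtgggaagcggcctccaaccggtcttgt
Chac1, chr2:119350992-119351291, plus strand: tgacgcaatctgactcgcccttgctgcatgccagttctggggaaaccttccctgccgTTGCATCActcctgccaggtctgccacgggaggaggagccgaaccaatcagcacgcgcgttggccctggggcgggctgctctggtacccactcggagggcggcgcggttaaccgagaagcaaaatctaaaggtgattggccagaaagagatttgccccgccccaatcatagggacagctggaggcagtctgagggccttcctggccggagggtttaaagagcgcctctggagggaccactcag
Trib3, chr2:152344011-152344310, minus strand: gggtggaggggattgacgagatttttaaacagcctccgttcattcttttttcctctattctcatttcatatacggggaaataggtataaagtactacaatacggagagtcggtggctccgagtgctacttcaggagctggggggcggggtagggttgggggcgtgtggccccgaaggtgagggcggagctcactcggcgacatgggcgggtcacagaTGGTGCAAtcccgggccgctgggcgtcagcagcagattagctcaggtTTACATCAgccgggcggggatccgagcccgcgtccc
The Psat1 match began 136 bases before the start site, that of Asns 23 bases before it, and that of Chac1 193 bases before it on the other strand. Trib3 had a match 33 bases before the start and another after it, on the other strand. A match is a description of letters only. The other window of Psat1 and those of the remaining 6 genes held none.

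Depth ran from 898451 to 1991621 reads per library in the adult table, 2244169 to 4573063 in total brain, 1817611 to 4143142 in hippocampus and 992317 to 3460338 in development. The tables were scaled separately, so levels are compared within a table only. All 14 microglial markers were above 0 in all 46 libraries. Dicer1, the targeted gene, overlapped between Dicer-deficient and control libraries in the adult table (117 to 151 against 97.6 to 153) and in the other 5 settings, and whether reads from the deleted exons were counted is not given in the sources used here. LPS control library 33 of total brain stood apart: its P2ry12, a marker of resting microglia, was 6074 against 974 to 1476 in the other LPS controls, and its summed neutrophil and monocyte markers were 4454 against 577 to 898. The 3 hippocampal Dicer-deficient libraries at steady state had summed neutrophil and monocyte markers of 8524 to 8894, against 1622 and 3279 in the controls, and they held both Xist (622 to 693) and the Y-linked Ddx3y (182 to 209), whereas control library 1 had Xist at 1429 and Ddx3y at 2.74 and control library 2 had 3.91 and 334. All 4 hippocampal LPS libraries had Xist at 1.27 to 9.72. In bulk samples, fewer cells of a type and less RNA per cell cannot be told apart.

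Some of the 10 genes share sequence. Phgdh has 9 processed pseudogenes in GENCODE with at least 95% identity over 277 to 1608 bases, so its counts are uncertain where reads could be split. Exons of Psph, Shmt2 and Ddit3 overlap genes on the opposite strand (Cct6a, Ndufa4l2, and Mars with Gm4189), and the strand setting of the counting is not given in the sources used here.

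At rest Psat1 was higher in Dicer-deficient than in control microglia of the adult table and of hippocampus. In the adult table it was 1337, 205 and 816 normalized reads in the 3 Dicer-deficient libraries, against 79.2, 159, 80.6 and 56.5 in the 4 controls. Every Dicer-deficient library was above every control, although the Dicer-deficient libraries differed widely among themselves. The log2 fold change, on the log2(value + 1) scale, was 2.79 ± 0.47 (SE), or 6.90-fold, with an adjusted p of 0.00182 (limma). In this comparison 5.15% of 11045 genes were called, that is, had an adjusted p under 0.05, and 3.15% were called higher. Psat1 was the single gene called among the 7 members tested, since Asns, Chac1 and Trib3 were near 0 and fell to the filter on low values. The median over those 7 was a log2 fold change of 0.47, against 0.05 over all genes. Without Dicer-deficient library 2 the Psat1 value was 3.57 (adjusted p = 3.83e-07). Summed astrocyte markers were lower in the Dicer-deficient libraries (650 to 1170 against 1406 to 1574), a sum made up mostly of the glutamate transporter gene Slc1a3 (596 to 1120 against 1381 to 1563). Of the 6 astrocyte markers tested, Slc1a3 was called lower, 0 were called higher and the median log2 fold change was 1.75. Gfap was 0 in all 7 libraries, and summed neutrophil and monocyte markers overlapped. The part of the astrocyte markers in the result was not tested.

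The hippocampus showed a difference of Psat1 in the same direction. The Dicer-deficient libraries had 329, 386 and 525, and the controls had 57.6 and 18.001. The groups did not overlap, and the log2 fold change was 3.61 ± 0.49 (12.2-fold, adjusted p = 0.0116, limma). In this comparison 0.17% of 12366 genes were called, 0.154% as higher, and Psat1 was the single member among them. Shmt2 (46.1 to 70.8 against 103 and 139), Atf4 (484 to 905 against 923 and 934) and Phgdh lay below both controls without passing the test. Over all genes, groups that did not overlap made up 10.5% as higher and 13.7% as lower. The call rests on few libraries: the adjusted p was 0.0775 without Dicer-deficient library 5 and 0.0722 without library 6. Without control library 2 the log2 fold change was 2.79 (adjusted p = 0.104), and without control library 1 it was 4.42 (adjusted p = 0.00813). The neutrophil and monocyte markers given above moved with it, all 3 Dicer-deficient libraries being higher. Sex-linked RNA differed too. All 3 Dicer-deficient libraries held both Xist and Ddx3y, whereas control library 1 held mainly Xist and control library 2 mainly Ddx3y. Whether the 3 libraries come from separate animals is not stated in the labels. The part of these differences in the result was not tested.

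In total brain at steady state Psat1 was 98.3, 444 and 110 in Dicer-deficient libraries 5, 11b and 12. The controls lay between 49.6 and 52.9, a spread of 1.88 (SD, n = 3), below all 3. The log2 fold change of 1.69 ± 0.48 did not pass the test (adjusted p = 0.0788), and library 11b contributed the highest value. edgeR on the recovered reads called it, with a log2 fold change of 2.19 and an adjusted p of 0.033. With limma, 0 of 6 refits that each left out a library called it. Their log2 fold changes ran from 0.996 to 2.08, with adjusted p between 0.0641 and 0.278. No member passed the main test here, where 2.18% of 13423 genes were called, and 3 members (Psat1, Phgdh and Mthfd2) had an unadjusted p under 0.05. One member lay above and one below all controls, as did 9.15% and 13.7% of genes.

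**Figure D1:**
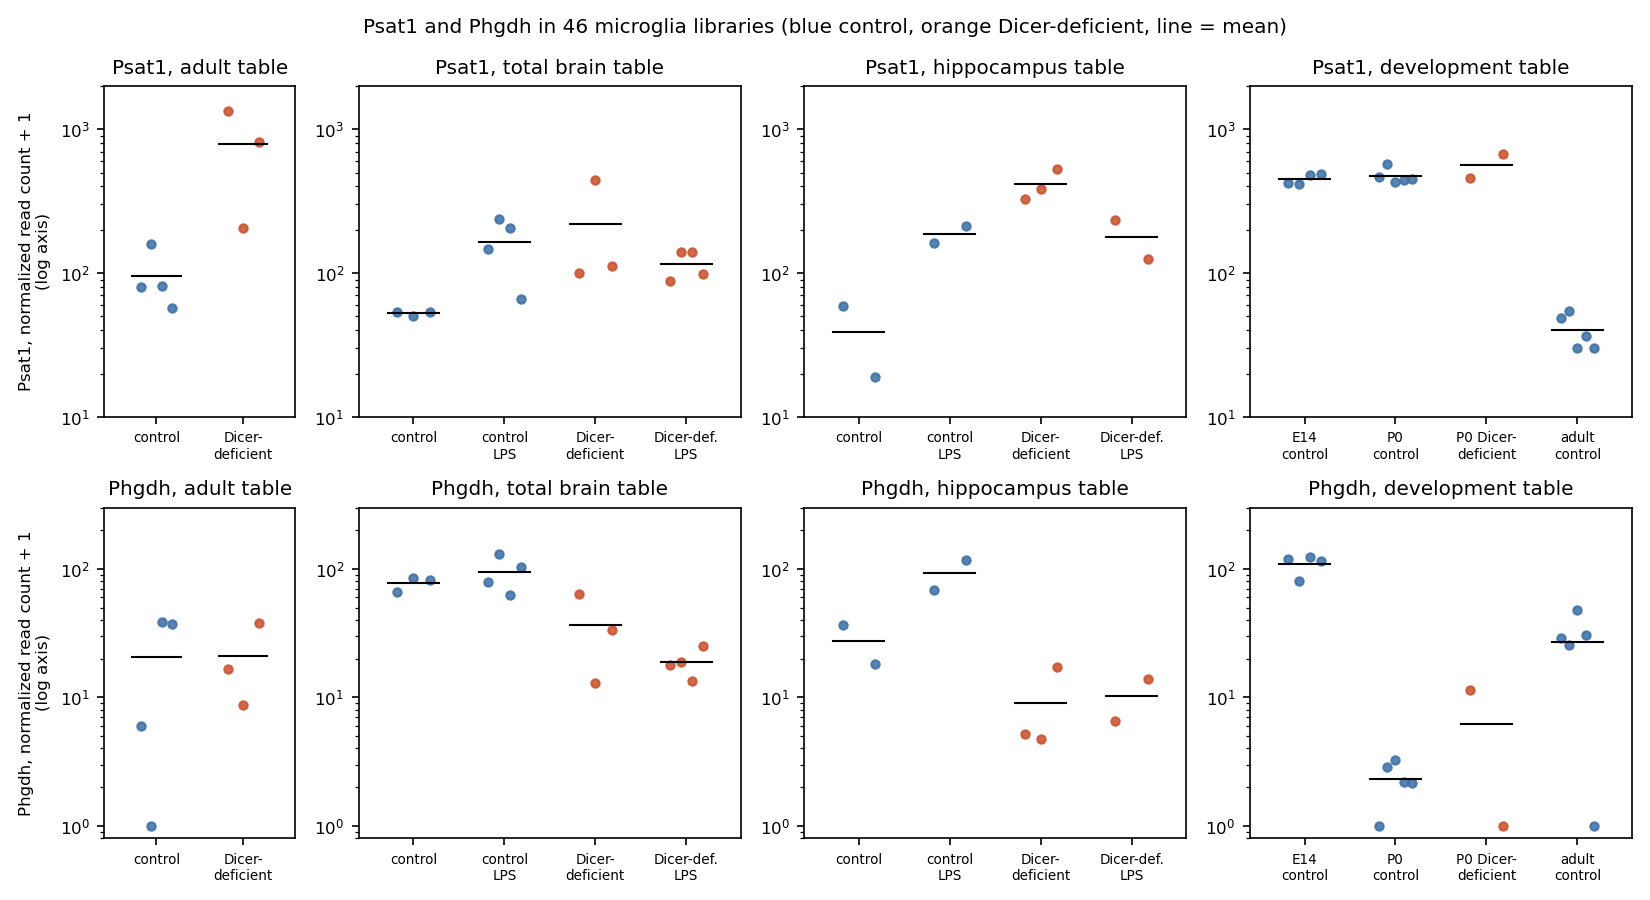
Normalized read counts plus 1 on a log axis for Psat1 (top) and Phgdh (bottom) in every library, by group and table; points are libraries, lines are group means, blue is control and orange is Dicer-deficient. At steady state every adult Dicer-deficient library lies above every control for Psat1, and after LPS every Dicer-deficient library lies below every control for Phgdh.

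Phgdh, which makes the substrate of Psat1, did not follow it. In total brain after LPS the Dicer-deficient libraries had 16.7, 17.8, 12.4 and 24.1, and the controls had 78.4, 129, 61.7 and 102. The groups did not overlap, and Phgdh fell by 2.30 ± 0.39 on the log2 scale (adjusted p = 0.00149, limma). At steady state it was 62.7, 11.9 and 32.4 in Dicer-deficient libraries and 65.2 to 84.1 in controls. Those groups did not overlap either, but the log2 difference of -1.35 ± 0.45 did not pass the test (adjusted p = 0.136). In hippocampus the Dicer-deficient libraries had 3.74 to 16.2 at steady state and 5.55 and 12.8 after LPS, below the controls at 17.2 and 35.6, and at 67.7 and 117. Of 6 refits of the steady-state difference in total brain, each without a library, 1 passed the test. That was the refit without Dicer-deficient library 5 (-1.89, adjusted p = 0.0435, limma). The weakest value was -0.74, and the adjusted p was up to 0.403. Neither hippocampal difference passed the test (adjusted p = 0.591 and 0.389). In the adult table Phgdh rested on 0 to 8 reads per library and the groups overlapped. Astrocytes and neural progenitors use Phgdh heavily. In total brain after LPS the summed astrocyte markers were 1112 to 2061 in Dicer-deficient and 628 to 888 in control libraries, a sum made up mostly of Slc1a3 (1092 to 2036 against 585 to 858). Of the 6 astrocyte markers tested, Slc1a3 was called higher, 0 were called lower and the median log2 fold change was -0.80. Aqp4 was 0 in all 8 libraries, and Gfap was 0 in all but Dicer-deficient library 38 at 1.1. The part of these markers in the Phgdh result was not tested.

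Psph, the last enzyme of the chain, passed no test between the genotypes. In total brain after LPS it was 38.9, 52.5, 35.5 and 47.0 in Dicer-deficient and 76.4, 71.8, 92.6 and 42.6 in control libraries, which overlapped through control library 33. The log2 difference was -0.66 ± 0.30 (adjusted p = 0.194).

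Shmt2, the enzyme that splits serine, was the other gene called after LPS. It was 200.9, 197, 190 and 168 in Dicer-deficient total brain libraries, against 401, 398, 481 and 207 in controls. All 4 Dicer-deficient libraries were below all controls, narrowly so for control library 33. Shmt2 fell by 0.91 ± 0.22 on the log2 scale (adjusted p = 0.0154). Thus 2 of 10 members were called in this comparison, both lower, where 9.4% of 12937 genes were called and 5.46% were called lower. Both lay below all controls, as did 8.71% of genes. The members' median was -0.40, against -0.10 over all genes. Summed neutrophil and monocyte markers overlapped between these groups (1174 to 4046 against 577 to 4454), although 4 of 14 passed the test as higher in the Dicer-deficient libraries, and their part was not tested. The calls of Phgdh and Shmt2 held when any one of the 8 libraries, library 33 included, was left out.

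Mthfd2, which works downstream of Shmt2, was 16.4, 85.0 and 27.6 in Dicer-deficient and 78.5, 82.4 and 105.7 in control total brain libraries at steady state. Library 11b alone overlapped the controls. The log2 difference was -1.35 ± 0.40 (adjusted p = 0.0932), and -1.998 without library 11b (adjusted p = 0.00253). Of 6 refits that each left out a library, that was the 1 that passed the test. The weakest value was -0.85, and the adjusted p was up to 0.323 (limma). After LPS the genotypes overlapped (194 to 261 against 174 to 370).

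Atf4, Ddit3, Asns, Chac1 and Trib3 showed no called difference between genotypes in the settings where they were tested. Asns, Chac1 and Trib3 were not tested in the adult table. Other Atf4 targets, some of them called, are given further below. In the adult table Atf4 was 70.0, 50.2 and 32.4 in Dicer-deficient libraries, below all 4 controls at 94.0, 116, 118 and 77.0, with a log2 difference of -1.02 ± 0.39 (adjusted p = 0.155). These values rested on 7 to 29 reads per library. Ddit3, a transcription factor of the stress response also known as CHOP, was 207, 200.8 and 311 against 140 to 167. It lay above all controls, with a log2 difference of 0.61 ± 0.25 (adjusted p = 0.189). Of all genes, 9.79% lay above and 6.68% below all controls. After LPS in total brain Atf4 was 1156 to 1285 in Dicer-deficient libraries and 734 to 1591 in controls, a log2 difference of 0.01 ± 0.21.

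In hippocampus after LPS no member was called, and 0.307% of 12366 genes were. The log2 differences were negative for 9 of 10 members with a median of -0.91, against -0.05 over all genes. For 6 members both Dicer-deficient libraries were below both controls: Phgdh, Psph, Shmt2, Asns, Chac1 and Atf4. The same held for 22% of all genes. Shmt2, for example, was 236 and 116 against 281 and 541, and Atf4 was 1299 and 1835 against 2037 and 2629. The LPS libraries are shared with the comparisons of LPS with steady state that follow.

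**Figure D2:**
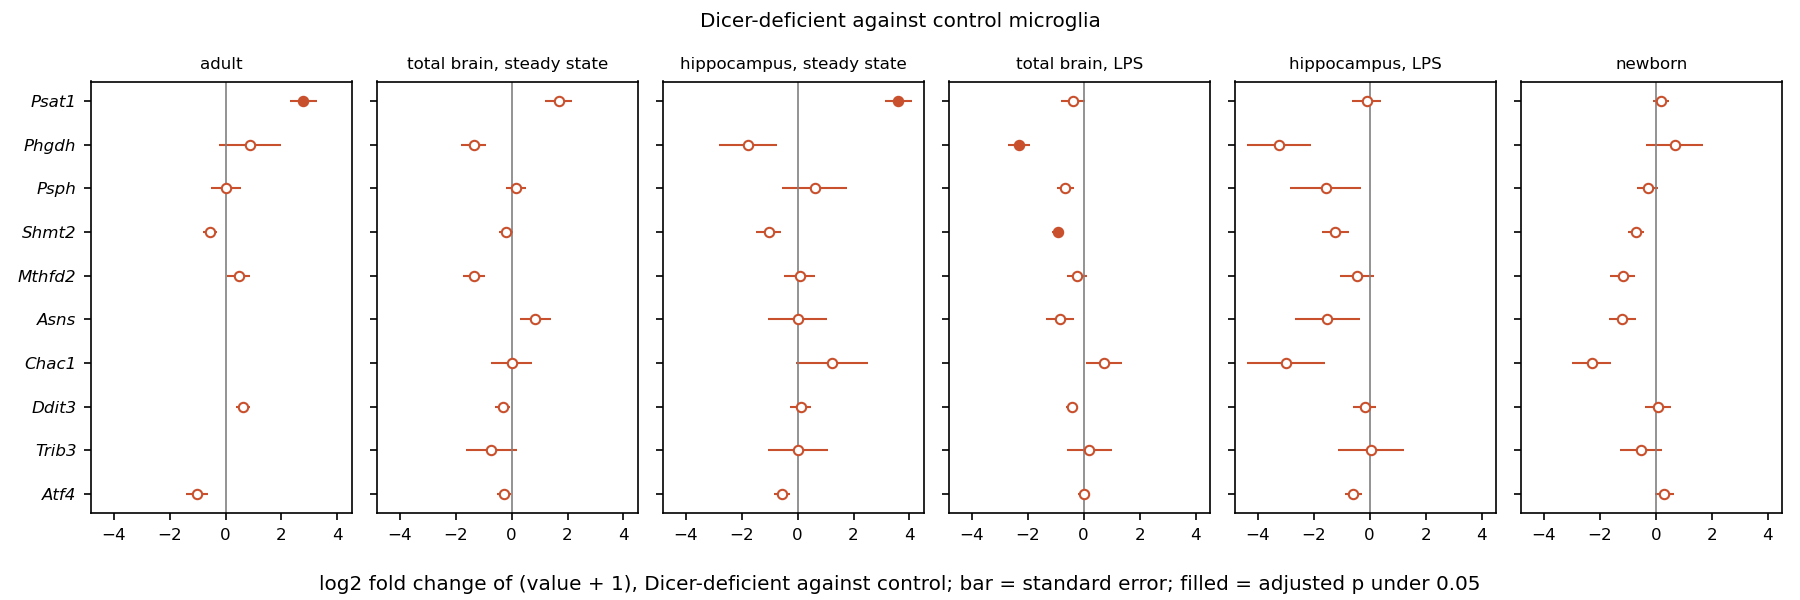
Log2 fold changes of (value + 1), Dicer-deficient against control, for 10 genes in 6 settings, with standard errors; filled points have an adjusted p under 0.05. Psat1 lies to the right at steady state in the adult table, total brain and hippocampus, and Phgdh and Shmt2 lie to the left in total brain after LPS; Asns, Chac1 and Trib3 were not tested in the adult table.

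LPS raised Psat1, Mthfd2, Asns and Atf4 in control microglia of both regions. In total brain 5 of 10 members were called and all were higher: Psat1, Shmt2, Mthfd2, Asns and Atf4. Of 13423 genes, 14.1% were called and 7.05% were called higher. For 6 members every LPS library was above every steady-state library, as for 9.94% of genes. The members' median log2 fold change was 1.16, or 0.78 with Chac1, which was 0 in every steady-state library, at its mean over a floor of 3 reads per library. Over all genes the median was -0.05. Other cell type markers changed too: 8 of 14 neutrophil and monocyte markers were called higher and 2 lower (median 2.35), and 7 of 14 microglial markers were called lower. Their summed levels were 577 to 4454 against 1004 to 1168 for neutrophils and monocytes, and 91904 to 134212 against 128329 to 140970 for microglia. Their part in the result was not tested.

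Asns, which makes asparagine from aspartate, had the largest change of a called member. It was 2.8, 0.8 and 2.3 in the 3 steady-state controls and 14.4, 50.2, 36.8 and 26.7 after LPS. Every LPS library was above every steady-state library, and the log2 fold change was 3.41 ± 0.53 (adjusted p = 0.00152). Shmt2 went from 118, 108 and 94.2 to 401, 398, 481 and 207, a log2 fold change of 1.73 ± 0.24 (adjusted p = 0.000764). Mthfd2 went from 78.5, 82.4 and 106 to 248.7, 266, 370 and 174 (1.53 ± 0.38, adjusted p = 0.0139). For both enzymes the lowest LPS value, still above all steady-state libraries, was that of library 33.

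Psat1 went from 49.6 to 52.9 at steady state to 146, 238, 206 and 65.4 after LPS in control total brain. The log2 fold change was 1.49 ± 0.45 (adjusted p = 0.0343). Atf4 was 564, 743 and 871 at steady state and 1425, 1232, 1591 and 734 after LPS (0.74 ± 0.23, adjusted p = 0.0385), and only library 33 overlapped with steady state. Fitted on these 2 groups alone, Atf4 had an adjusted p of 0.104. Both calls were fragile: leaving out any one of 6 of the 7 libraries, library 33 being the exception, ended each of them, with adjusted p up to 0.114 for Psat1 and 0.186 for Atf4. Mthfd2 lost its call without LPS library 32 or steady-state library 7 or 8, with adjusted p between 0.0523 and 0.0584. Without library 33, 7 members were called, Psph (log2 fold change 1.04) and Chac1 (2.36) joining the 5. Chac1 degrades glutathione. It was 2.1, 2.6, 11 and 1 after LPS, on 2, 3, 15 and 1 reads. The mean was 1.42-fold a floor of 3 reads per library, and 0.647-fold without library 32. Phgdh, Ddit3 and Trib3 overlapped between the groups.

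In control hippocampus LPS raised 4 members, Psat1, Mthfd2, Asns and Atf4, where 5.23% of 12366 genes were called and 2.35% were called higher. Asns was listed at 0 in both steady-state libraries and was 64.4 and 62.2 after LPS, at least 28.8-fold higher than a floor of 3 reads per library (adjusted p = 0.0105, limma). Mthfd2 went from 40.4 and 17.2 to 430 and 243, a log2 fold change of 3.56 ± 0.61 (adjusted p = 0.0055). Psat1 went from 57.6 and 18.001 to 160 and 211 (2.47 ± 0.53, adjusted p = 0.0184, or 0.0693 fitted on these 2 groups alone). Atf4 went from 934 and 923 to 2037 and 2629 (1.32 ± 0.30, adjusted p = 0.0254). For 8 of the 10 members both LPS libraries were above both steady-state ones, as for 24.7% of all genes. The median was 1.75, with Asns and Chac1 at their bounds too, against 0 over all genes. Chac1 was 0 at steady state and 13.1 and 21.6 after LPS, at least 7.86-fold higher, without passing the test (adjusted p = 0.122). Shmt2 went from 103 and 139 to 281 and 541 (1.69 ± 0.49, adjusted p = 0.0709), which edgeR called (adjusted p = 0.0336). Without steady-state library 1 the Psat1 value was 3.28 and that of Mthfd2 was 4.15. Without steady-state library 2 they were 1.66 (adjusted p = 0.158) and 2.97 (adjusted p = 0.063). The number of calls was 0 without LPS library 15 or steady-state library 2, 1 without LPS library 16 and 2 without steady-state library 1. In the same comparison 8 of 14 microglial markers and 2 of 7 border macrophage markers were called lower, the latter with a median of -4.90 and summed levels of 6.53 and 35.5 against 295 and 477, and their part was not tested.

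Dicer-deficient microglia raised Shmt2, Mthfd2, Asns, Chac1 and Atf4 after LPS in total brain, 5 of 10 members, where 24.9% of 13423 genes were called and 12.2% were called higher. Mthfd2 went from 16.4, 85.0 and 27.6 to 194, 202, 261 and 217, a log2 fold change of 2.64 ± 0.38 (adjusted p = 9.36e-05). Shmt2 went from 93.5, 109 and 79.0 to between 168 and 200.9 (1.01 ± 0.24, adjusted p = 0.0044). Atf4 went from 534, 701 and 560 to between 1156 and 1285 (1.02 ± 0.23, adjusted p = 0.00339). For each of the 5, every LPS library was above every steady-state library, as for 16% of genes. Asns went from 3.9, 8.4 and 1.9 to 13, 15.3, 11.2 and 27.3 (1.71 ± 0.53, adjusted p = 0.0245), a call that was lost without LPS library 38 or steady-state library 5 or 12 (adjusted p 0.0684 to 0.128). Chac1 was 0 in all 3 steady-state libraries and 8.3, 0.8, 8.3 and 12 after LPS, at least 2.81-fold higher (adjusted p = 0.00671). Phgdh was 12.4 to 24.1 after LPS and 11.9 to 62.7 at steady state. It passed the test as lower only without steady-state library 11b (-1.33, adjusted p = 0.012). The members' median was 0.95, against -0.04 over all genes. Mthfd2 changed by 3.29 without steady-state library 11b, and Chac1 by 3.38 without LPS library 36. Of other cell types, 11 of 14 neutrophil and monocyte markers (median 3.99) and 5 of 7 erythroid markers (median 4.20) were called higher, and 9 of 14 microglial markers were called lower. Summed erythroid markers were 83.6 to 451 at steady state and 2957 to 6963 after LPS, without overlap, and the part of these markers was not tested.

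In hippocampus the Dicer-deficient microglia raised Mthfd2, Asns and Atf4 after LPS, 3 of 10 members, where 8.47% of genes were called and 3.87% were called higher. Mthfd2 went from 35.9, 34.3 and 17.8 to 228 and 246 (3.03 ± 0.56, adjusted p = 0.00554). Asns was 0 in all 3 steady-state libraries and 47.2 and 9.42 after LPS, at least 11.4-fold higher (adjusted p = 0.0212). The bound was 3.78-fold without LPS library 18, where the call was lost (adjusted p = 0.179), and 19-fold without LPS library 20. Atf4 went from 905, 576 and 484 to 1299 and 1835 (1.29 ± 0.28, adjusted p = 0.0131). Leaving out LPS library 18 or 20 left 1 call, and without steady-state library 5 Asns was lost (adjusted p = 0.0513). Shmt2 went from 70.8, 46.1 and 59.1 to 236 and 116 (1.4997 ± 0.45, adjusted p = 0.061), which edgeR called (adjusted p = 0.0269). Groups did not overlap for 4 members higher and 1 lower after LPS, as for 18.3% and 17.1% of genes. In this comparison 9 of 14 microglial and 4 of 7 border macrophage markers were called lower, and neutrophil and monocyte markers 1 higher and 6 lower of 13 tested. Xist was 622 to 693 at steady state and 1.35 and 9.72 after LPS. The part of these differences was not tested.

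Psat1 passed no test for a change with LPS in Dicer-deficient microglia. In total brain it was 98.3, 444 and 110 before LPS and 87.0, 138, 140 and 96.8 after LPS, which overlapped (log2 fold change -0.58 ± 0.45, adjusted p = 0.39). Its sign was not stable: refits that each left out a library ran from -0.97 to 0.12. In hippocampus it was 329, 386 and 525 at steady state and 233 and 124 after LPS. Both LPS libraries were below all 3 at steady state, with a log2 difference of -1.25 ± 0.49 that did not pass the test (adjusted p = 0.143). After LPS the genotypes overlapped in both regions, with log2 differences of -0.38 ± 0.42 in total brain and -0.11 ± 0.53 in hippocampus. The LPS effect of the Dicer-deficient minus that of the control microglia was -2.07 ± 0.64 in total brain (adjusted p = 0.231) and -3.72 ± 0.72 in hippocampus (adjusted p = 0.274). Neither passed the test over all genes, where 0.171% and 0.0162% of genes were called, and the unadjusted p was 0.00452 and 0.000222. Of 14 total brain refits that each left out a library, 1 passed, without LPS control library 33 (-2.46, adjusted p = 0.0457, limma). Over these refits the value ran from -2.46 to -1.38, with an adjusted p of up to 0.422. No other member had a called difference of LPS effects. In the Dicer-deficient hippocampal libraries, summed neutrophil and monocyte markers also went from 8524 to 8894 at steady state to 772 and 1026 after LPS. Xist in these libraries was 622 to 693 at steady state and 1.35 and 9.72 after LPS. The part of these differences was not tested.

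**Figure D3:**
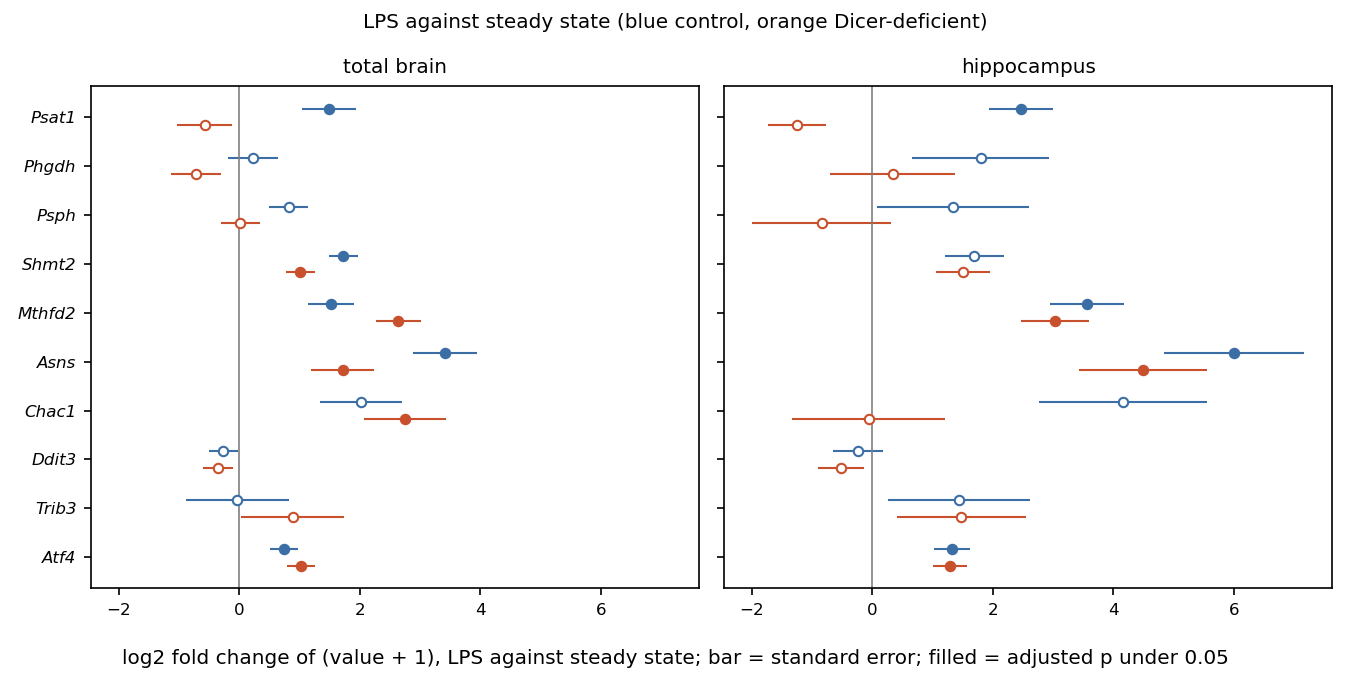
Log2 fold changes of (value + 1), LPS against steady state, in control (blue) and Dicer-deficient (orange) microglia of total brain and hippocampus, with standard errors; filled points have an adjusted p under 0.05. Shmt2, Mthfd2, Asns and Atf4 lie to the right in both genotypes. Psat1 lies to the right in controls and, without passing the test, to the left in Dicer-deficient microglia. In total brain its Dicer-deficient libraries overlapped, and refits that each left out a library ran from -0.97 to 0.12.

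In control microglia the level of Psat1 was high before and at birth and low in adults. It was 413 to 486 in the 4 E14 libraries, with a mean of 451 ± 36.7 (SD), 428 to 574 in the 5 P0 libraries (472 ± 58.4), and 29.2 to 53.5 in the 5 adult libraries (39.0 ± 10.97). The stages E14 and P0 overlapped, while all adult libraries were below both. Between P0 and adult Psat1 fell by 3.60 ± 0.15 on the log2 scale (adjusted p = 4.17e-13), and E14 and P0 differed by 0.06 ± 0.16 (adjusted p = 0.807). Markers of other cells fell over the same interval. From P0 to adult 6 of 7 border macrophage markers (median -4.58), 6 of 6 neural progenitor markers and 8 of 10 neuron markers were called lower. Summed border macrophage markers were 477 to 748 at E14, 801 to 1101 at P0 and 20.2 to 81.3 in adults. Their part in the lower adult levels of Psat1, and of Shmt2 and Asns given next, was not tested.

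Phgdh had another course. It was 119, 79.6, 123 and 114 at E14, between 0 and 2.28 at P0, on 0 to 3 reads per library, and 28.0, 24.6, 46.6, 29.5 and 0 in adults. It fell by 5.66 ± 0.74 on the log2 scale from E14 to P0 (adjusted p = 1.85e-05) and rose by 2.91 ± 0.70 from P0 to adult (adjusted p = 0.00167), 1 adult library being at 0, without which the rise was 3.91. With so few reads at P0, the size of these values depends on the pseudocount, as it does for Trib3 and Chac1. The summed neural progenitor markers, among them Nes and Sox2, moved with it from E14 to P0: they were 408 to 715 at E14 and 71.2 to 119 at P0. In adults they were 3.45 to 7.11, where Phgdh was above its P0 level in 4 of 5 libraries. Their part in the result was not tested.

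Psph was 44.9 to 73.3 at E14, 47.9 to 66.0 at P0 and 20.7 to 65.3 in adults. It passed the test as lower in adults than at P0 (-0.70 ± 0.26, adjusted p = 0.0309), but 6 of the 10 refits that each left out a P0 or adult library took the adjusted p past 0.05. Shmt2 was 196 to 238 at E14, 195 to 322 at P0 and 52.6 to 94.5 in adults, all adults being lower (-1.74 ± 0.16 against P0, adjusted p = 1.85e-08). Asns was 17.05 to 27.6 at E14, 11.8 to 34.96 at P0 and 0.72 to 8.63 in adults (-2.39 ± 0.42 against P0, adjusted p = 8e-05). Mthfd2 overlapped between P0 (37.4 to 60.0) and adults (28.7 to 63.5), and was 56.8 to 81.7 at E14. Its call as lower at P0 than at E14 (adjusted p = 0.043) was lost with edgeR (adjusted p = 0.0813), with a pseudocount of 0.1 (0.0512), without the filter (0.0521) and in 7 refits that each left out a library.

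Atf4 itself was highest at birth. It was 516 to 610 at E14, 1195 to 2253 at P0 and 923 to 1042 in adults, with no overlap between any pair of stages. It rose by 1.65 ± 0.16 on the log2 scale from E14 to P0 (adjusted p = 6.68e-07) and fell by 0.83 ± 0.15 from P0 to adult (adjusted p = 0.000123). Trib3, a pseudokinase induced by Atf4, was 0 to 0.58 at E14, 2.34 to 9.88 at P0 and 0 to 1.02 in adults, on 13 reads or fewer per library (1.91 ± 0.41, adjusted p = 0.00189, and -1.84 ± 0.40, adjusted p = 0.000667). Chac1 was 0 to 1.04 at E14, 0 to 9.96 at P0 and 0 to 1.02 in adults. It passed the test as lower in adults than at P0 (adjusted p = 0.00994), and not between E14 and P0 (adjusted p = 0.0747), where edgeR called it (adjusted p = 0.0191). Ddit3 was 39.7 to 62.4 at E14, 80.0 to 286 at P0 and 117 to 195 in adults. It was higher at P0 than at E14 (1.64 ± 0.28, adjusted p = 0.000273) and overlapped between P0 and adult. Summed erythroid markers, the hemoglobins among them, were 11512 to 47786 at P0, 485 to 838 at E14 and 41.3 to 1790 in adults, and their part in the peak at birth was not tested.

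In all, 3 members were called higher and 2 lower at P0 than at E14, where 29.3% of 13666 genes were called, 11% higher and 18.3% lower, and for 3 and 1 members the groups did not overlap, as for 9.72% and 15.5% of genes. From P0 to adult 1 was called higher and 7 lower, where 49.1% of 13290 genes were called, 22.3% higher and 26.8% lower. The members' median was -1.28, against -0.08 over all genes, and 5 members were lower in all adults than in all newborns, as were 17.7% of genes. Between E14 and adult 2 were called higher and 6 lower, where 56.3% of 13666 genes were called, 23% higher and 33.3% lower, and the groups did not overlap for 2 and 4 members, as for 18.7% and 27.1% of genes. These 3 comparisons share libraries.

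**Figure D4:**
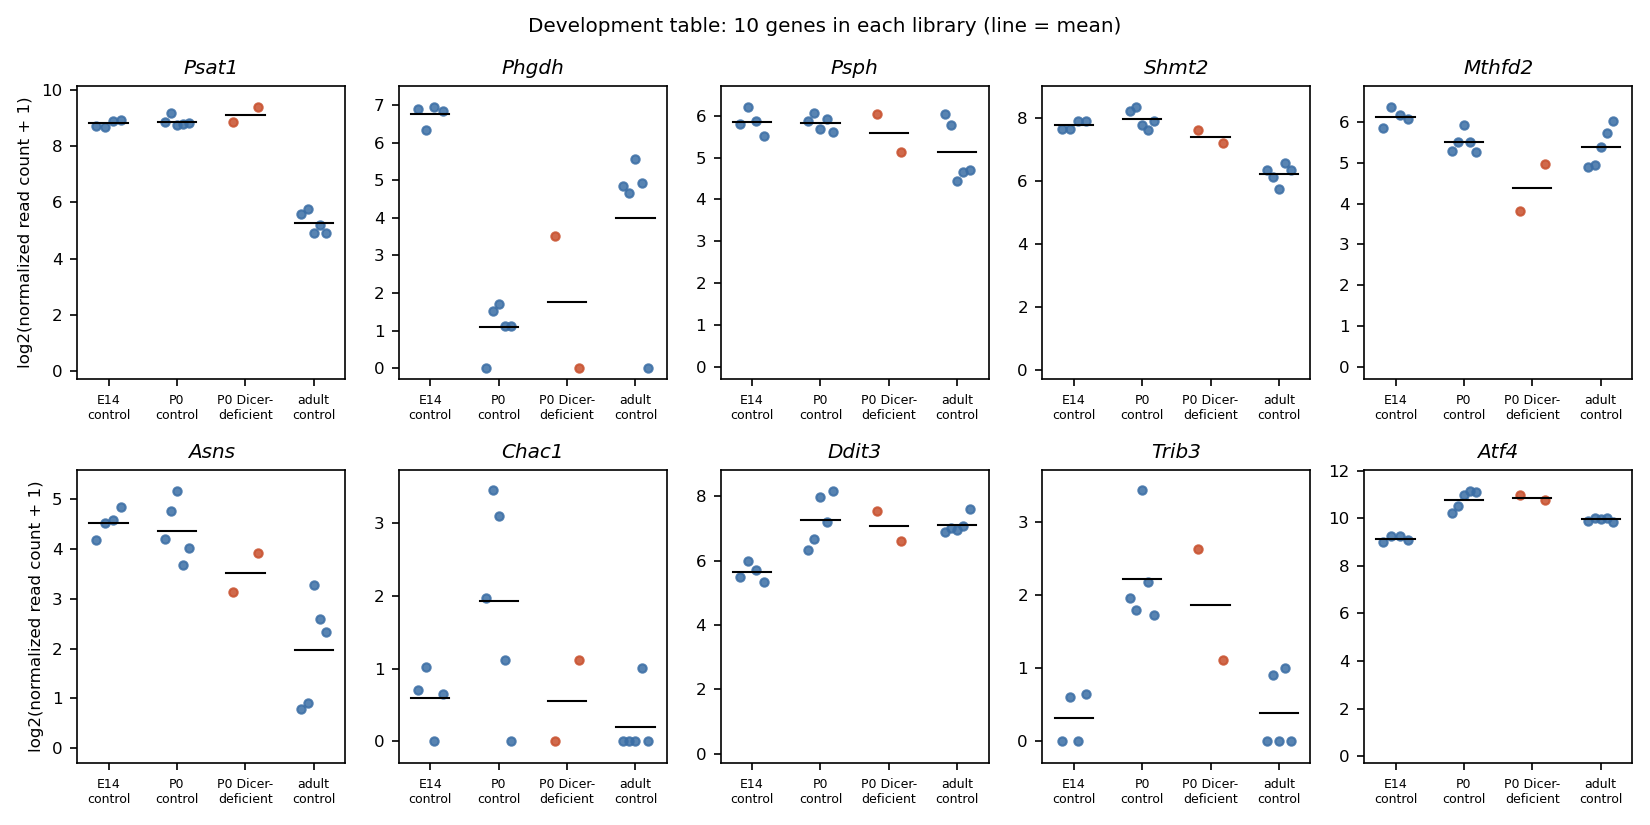
Log2(normalized read count + 1) of 10 genes in each library of the development table; points are libraries, lines are group means, blue is control and orange is Dicer-deficient. Psat1, Shmt2 and Asns are high at E14 and P0 and low in adults, Phgdh is lowest at P0, and Atf4 is highest at P0.

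At birth Psat1 did not differ by genotype beyond the spread of libraries. It was 460 and 672 in the 2 Dicer-deficient libraries and 464, 574 and 428 in the 3 controls of this comparison (0.20 ± 0.29, adjusted p = 0.724). The newborn controls were Dicerfl/fl with no Cre named, so Dicer loss and carrying the Cre cannot be told apart in any newborn comparison. The adult log2 fold change of 2.79 comes from another table and another Cre line, and the difference between the ages was not tested. No member was called in the newborn comparison, where 1.48% of 13064 genes were called, and 4 had an unadjusted p under 0.05. Those 4, Shmt2, Mthfd2, Asns and Chac1, were lower in both Dicer-deficient libraries than in all 3 controls, as were 20.6% of all genes. Shmt2 was 192 and 146 against 297, 322 and 218. Mthfd2 was 12.998 and 30.4 against 37.8, 44.8 and 60.0. Asns was 7.80 and 14.05 against 17.4, 26.1 and 34.96, and Chac1 was 0 and 1.17 against 2.91, 9.96 and 7.60. The first Dicer-deficient library was also the shallowest of the table, with 992317 reads. The adjusted p lay between 0.13 and 0.206. Without the second Dicer-deficient library, which leaves 1 against 3, 4 members passed the test, Phgdh higher and Mthfd2, Asns and Chac1 lower, and without the first Shmt2 alone did.

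Pearson's r of log2(value + 1) between members was taken across the 46 libraries, with each table's mean subtracted. It had a median of 0.24 and ran from -0.39 for Phgdh and Ddit3 to 0.79 for Shmt2 and Asns. It was above 0 for 32 of 45 pairs and at least 0.5 for 8, all of them among Shmt2, Mthfd2, Asns, Chac1 and Atf4. The same counts were not made for pairs of other genes. Psat1 had its highest r with a member, 0.35, with Asns, and its r with Atf4 was -0.01. Within tables r of Psat1 and Shmt2 ran from -0.80 in the adult table to 0.92 in development. The genes most like Psat1 were Gusb (r = 0.81), Psmb1 (0.79), Chchd2 (0.77), Eif4a3 (0.76) and Eif3f (0.75) among 4626 genes compared. These points share library depth and group structure, so they are descriptions.

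The 6 lists of the wider pathway were read against all genes, of which 7.05% were called higher after LPS in control and 12.2% in Dicer-deficient total brain. Of 20 aminoacyl-tRNA synthetases, which charge tRNAs with amino acids, 10 rose and 0 fell in control total brain, and 12 rose and 0 fell in Dicer-deficient total brain. Eprs, the synthetase for glutamate and proline, had log2 fold changes of 1.22 ± 0.22 and 1.10 ± 0.22. Of 15 amino acid transporters, 6 rose and 1 fell in controls, and 6 rose and 2 fell in Dicer-deficient microglia. The arginine transporter Slc7a1 changed by 2.10 ± 0.28 and 2.52 ± 0.28, and the cystine transporter Slc7a11 by 3.28 ± 0.62 and 3.60 ± 0.62. Of 21 other Atf4 targets, 6 rose and 1 fell in controls and 5 rose and 2 fell in Dicer-deficient microglia. Eif4ebp1, an inhibitor of cap-dependent translation, changed by 1.71 ± 0.21 and 1.504 ± 0.21, whereas Cebpg fell by 0.91 ± 0.24 and 1.52 ± 0.24. Of 16 folate and glycine genes, 1 rose in controls, Mthfd1 (1.06 ± 0.26), a share near that of all genes, and 4 rose in Dicer-deficient microglia. Of 22 genes on a list of endoplasmic reticulum chaperones and related genes, 3 rose in controls. In Dicer-deficient microglia 2 rose and 1 fell, and the share that rose was below that of all genes. The sensor Atf6 changed by 1.23 ± 0.24 and 1.83 ± 0.24. Of 16 eIF2 kinases, phosphatases and subunits, 3 rose in controls and 6 rose and 2 fell in Dicer-deficient microglia.

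In hippocampus after LPS, 5 of 15 transporters rose in controls and 4 in Dicer-deficient microglia, and 3 and 2 of 20 synthetases rose, where 2.35% and 3.87% of all genes were called higher. Of 21 other Atf4 targets 2 rose and 0 fell in controls, and 5 rose and 1 fell in Dicer-deficient microglia. Of 22 genes of the endoplasmic reticulum list, 1 rose and 1 fell in controls, and 1 rose in Dicer-deficient microglia. Of 16 eIF2 genes 2 and 1 rose, and of 16 folate and glycine genes 0 were called. Cebpb, a partner of Atf4, changed by 2.91 ± 0.39 in controls and 3.09 ± 0.35 in Dicer-deficient microglia.

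Between genotypes, the genes of these lists that passed the test are read against all genes. Of all genes, 5.15% were called in the adult table, 2.18% in total brain at steady state and 9.4% there after LPS. In hippocampus 0.17% were called at steady state and 0.307% after LPS, and at birth 1.48% were. In the adult table Atf3, another stress factor, fell by 1.39 ± 0.23 (adjusted p = 0.00162) in Dicer-deficient microglia, 1 of 20 other Atf4 targets, and 0 rose. The transporters Slc38a9 (0.64 ± 0.14) and Slc36a1 (0.71 ± 0.16) rose, as did Derl1, Pdia6 and Atf6 of the endoplasmic reticulum list (0.58 to 0.74). In total brain Jdp2, a partner of stress factors, rose by 1.60 ± 0.39 at steady state. Slc7a5, which carries large neutral amino acids, fell by 1.67 ± 0.32 at steady state and by 1.23 ± 0.28 after LPS, and after LPS Slc1a5, a glutamine and serine carrier, fell by 2.09 ± 0.51 and Slc7a7 rose by 0.78 ± 0.15, among 15 transporters of which 2 rose and 3 fell. In the same comparison Vegfa fell by 1.89 ± 0.58, 1 of 20 other Atf4 targets, and Eif2b4 rose by 0.54 ± 0.15, 1 of 16 eIF2 genes. Of 22 genes of the endoplasmic reticulum list, Atf6 rose by 0.91 ± 0.22 while Sdf2l1 fell by 1.02 ± 0.26 and Canx by 0.52 ± 0.16. At birth Ddit4, an inhibitor of mTORC1, rose by 4.57 ± 0.34 (adjusted p = 0.000738), with Jdp2 (2.42 ± 0.32), Cebpb (2.00 ± 0.34) and the transporter Slc36a1 (1.45 ± 0.27). Of 20 synthetases, 0 passed the test between genotypes in any of the 6 settings. In hippocampus 0 genes of the 6 lists passed it between genotypes, at steady state or after LPS.

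From P0 to adult, 10 of 16 folate and glycine genes and 15 of 20 synthetases fell, where 26.8% of all genes were called lower. Sfxn1, a mitochondrial serine carrier, fell by 1.32 ± 0.12, and Eprs by 1.13 ± 0.14. In the same comparison 1 synthetase and 0 folate and glycine genes rose.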

How the data were processed

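RNA of sorted microglia was sequenced after oligo(dT) capture, per the labels. The values the authors deposited are signal: read counts per gene multiplied by 1 factor per library. Build mm9 and the tools HISAT 0.1.5, HOMER, DESeq2, SAMtools and bcl2fastq are named, per the submitters' processing notes. The use of molecular identifiers is not given in the sources used here. At least 99.9% of the values above 0 in each library were within 0.1 read of a whole number after division by its factor.

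limma 3.58.1 (R 4.3.3, variance trend) was fitted to log2(value + 1), with 1 mean per group and 1 fit per table. The newborn comparison had its own fit on 5 libraries in all, the Dicer-deficient ones and P0 controls 1 to 3. A gene was tested where the number of libraries reaching a value of 1 was no lower than the size of the smaller group, and p was adjusted by Benjamini-Hochberg over all of them. Calls have an adjusted p under 0.05. The plan allowed for count tests; the values being normalized, edgeR 4.0.16 (TMM) on recovered reads is an alternative. The labels do not state that libraries are separate animals, so p-values cover no more than the variation among the libraries, and depth covers counting error only. The series text names both adult genotypes alike and counts 3 Dicer-deficient LPS libraries of total brain, whereas the labels separate the genotypes and give 4. Steady-state labels of total brain also say PBS. The fit was also run on simulated counts for some of the comparisons, with changes set only in genes above a minimum expected count. That run did not cover changes in genes with few reads or libraries that stand apart, and its outcome is not given here.

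The members, 6 pathway lists and 10 marker lists were chosen with earlier results of these data known. The text names all 10 members, Dicer1, up to 3 called genes per pathway list and comparison, and the 5 genes most correlated with Psat1. One gene of the pathway lists is not reported here. Alternatives were pseudocounts of 0.1 and 5, no filter, only the groups compared, all 5 P0 controls, the replicate block, edgeR and leaving out each library.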

Additional observations from a re-analysis of the deposited data

Results flagged for a closer look

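In hippocampus the LPS libraries of Psat1 lay on opposite sides of the steady-state libraries in the 2 genotypes, and 1 of the 2 differences was called. Its log2 fold change was 2.47 in controls, where both LPS libraries were above both steady-state libraries, and -1.25 in Dicer-deficient microglia, where both LPS libraries were below all 3 steady-state libraries without passing the test (adjusted p = 0.143). The test of the difference itself did not pass (adjusted p = 0.274, limma).

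In groups of 4 or 5 libraries, 6 of 58 groups of values had 1 library far from the others by the ratio of gap to range (Dixon's test). The cutoffs of that test assume normal values, so no rate by chance is given for these counts. Where all other libraries are at 0, the rule flags 1 library whatever its value. Psat1 was 574 in P0 control library 2, against 428 to 464 in the other 4. Ddit3 was 195 in adult control library 5 of the development table, against 117 to 135. Trib3 was 9.88 in P0 control library 3, against 2.34 to 3.54. Chac1 was 11 in LPS control library 32 of total brain, against 1.0 to 2.6, and 1.02, which is 1 read, in adult control library 4 of the development table, the others being 0. Asns was 21.5, which is 4 reads, in control library 3 of the adult table, the others being 0.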

How the results depend on the processing

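In the 15 comparisons 42 member values were called. Of 231 refits of these under other pseudocounts, filters, fits or edgeR, 221 kept the call, 10 lost it and 0 changed sign. Of 326 refits with 1 library left out, 268 kept it, 58 lost it and 0 changed sign. The numbers of members called ranged as follows when 1 library was left out. Between genotypes they were 1 in all refits of the adult table, 0 to 1 in total brain at steady state (1 with edgeR), 2 in all after LPS, 0 to 1 in hippocampus at steady state, 0 in all after LPS and 0 to 4 at birth. For LPS they were 2 to 7 in control and 4 to 6 in Dicer-deficient total brain, 0 to 2 and 1 to 3 in hippocampus, and 0 to 1 for the difference of LPS effects in total brain. Between stages they were 4 to 5, 7 to 8 and 7 to 8. Beyond fewer libraries, the cause was not tested. Refits that leave 1 library in a group assume that it varies like the others.

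Same-numbered libraries did not deviate together: their correlations ran from -0.20 to 0.08, so the numbers are not taken as pairs. With the replicate block, 1 member was called in the adult comparison, 6 from E14 to P0 (5 without it), 8 in each adult stage comparison and 0 at birth. No paired analysis was possible in total brain and hippocampus because their groups share fewer than 2 replicate numbers.

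Shallow values (Asns, Chac1, Trib3, and Phgdh at P0) are limited by depth: with a few reads per library, absence cannot be told from a low level. With edgeR, 1 member was called in total brain at steady state, where the main test called 0.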
